A study of Homo sapiens with 12 samples.

Results

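The comparison described here is that of MOLM-13 cells treated with decitabine (DAC) alone against untreated MOLM-13 cells. It takes 6 of the 12 libraries of the study, the 3 labelled DAC and the 3 labelled untreated, which were chosen by their labels and by nothing measured. MOLM-13 is a human acute myeloid leukemia line of monocytic character that carries the MLL-AF9 fusion and, according to the study, functional p53. The labels give RPMI with 20% FCS and 5 ng/ml GM-CSF as the medium of all cells, while the methods of the study name a lower share of serum and no GM-CSF for this line. The DAC cells received 100 nM DAC, and both medium and drug were renewed daily. The labels give 72 h for the DAC cells and 96 h for the untreated cells, while the design text gives 72 h for the harvest, so drug and time cannot be told apart if the labels hold. DAC was dissolved in PBS, and no library of cells given the solvent alone was analysed here. The other 6 libraries, 3 of cells given 1 µM all-trans retinoic acid (ATRA) and 3 of cells given DAC and ATRA, enter the fit and 1 further comparison, of DAC+ATRA with ATRA alone. The labels call the libraries of a group technical triplicates of 1 cell line, so p-values measure only the spread within 1 experiment.

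Decitabine is a cytidine analog that cells phosphorylate and build into DNA, where it traps the DNA methyltransferase DNMT1. Methylation is then diluted as cells divide, and genes held silent by methylation of CpG dinucleotides at their start can become active. Genes expressed in germ cells, the so-called cancer/testis genes, are the textbook case. In myeloid cells the drug is also known for p53 activation through DNA damage and for induction of maturation genes. Messenger RNA levels, not methylation, were measured here.

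Library size differed between the groups. The untreated libraries held 8.95 to 11.94 M recovered reads (M for mega) and the DAC libraries 4.67 to 6.95 M, without overlap. Values are given as normalised counts, which are reads divided by a size factor of the library. One read was worth 0.63 to 0.81 normalised counts in the untreated and 1.09 to 1.57 in the DAC libraries. The small cytoplasmic RNA gene RN7SL1 took 6.36%, 6.22% and 11.2% of the reads in untreated libraries 1 to 3 and 10.5%, 10.2% and 4.84% in DAC libraries 1 to 3, so this share crossed the groups. On the first principal component of these 6 libraries (44.8% of the variance) the groups separated, and on the second (22.03%) DAC replicate 3 stood apart from the other 5. Counts are therefore also given without DAC replicate 3. All 9 markers fixed for MOLM-13 were detected. Of the markers of other lineages, MS4A1, PAX5, ALAS2, PF4, GP1BA, CPA3 and COL1A2 had no read in any of the 6 libraries. Summed markers of the T lymphoid list were 12.5 to 25.2 normalised counts in untreated and 20.4 to 40.8 in DAC libraries, those of the mast cell and basophil list 4.06 to 12.4 and 9.80 to 25.1, and those of the fibroblast and epithelial list 53.6 to 77.2 and 83.1 to 90.3. The megakaryocytic sums were 35.8 to 45.9 and 38.1 to 56.5, and the erythroid sums 149 to 163 and 109 to 132. For B lymphoid genes the sum was 2.51 to 5.68 and 8.71 to 26.7, which is CD79A alone apart from single reads. The part of these genes in the results was not tested. In bulk RNA, fewer cells of a type and less RNA per cell cannot be told apart.

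DAC changed genes in both directions. Of 13448 gene symbols tested, 909 were called at an adjusted p under 0.01 in limma (6.76%), 495 upregulated (3.68% of all tested) and 414 downregulated (3.08%). Upregulated transcripts changed more strongly. Changes of over 2-fold were seen in 261 upregulated and 171 downregulated genes, of over 4-fold in 111 and 48, and of over 8-fold in 42 and 10. The median log2 fold change was 1.06 among upregulated and -0.89 among downregulated genes, with -0.0065 over all genes tested. Log2 fold changes refer to log2(normalised count + 1) throughout and understate the change of low genes. In 907 of the 909 called genes the libraries of both groups did not overlap. Over all genes tested, the 3 DAC libraries lay above all untreated libraries in 15.1% and below them in 13.9%. Without DAC replicate 3 the calls numbered 695 upregulated (5.17%) and 734 downregulated (5.46%), and 440 and 382 of the calls above remained. Leaving out untreated replicate 1 gave a total of 570, and leaving out untreated replicate 2 gave 524.

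The calls were spread unevenly over the range of normalised counts, which are lower limits and do not rank genes by expression. Among 1408 genes with a mean under 10 normalised counts in untreated cells, 82 (5.82%) were upregulated and 5 (0.355%) downregulated. Among 1423 genes above 1000 normalised counts, 77 (5.41%) were upregulated and 119 (8.36%) downregulated. In the classes between, from 10 to 100 and from 100 to 1000, the upregulated share was 2.41% and 4.20% and the downregulated share 1.21% and 4.82%. A gene near 0 in untreated cells can pass the filter on low values only through other libraries and has no room to fall, so these shares describe the filter as well.

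**Figure D1:**
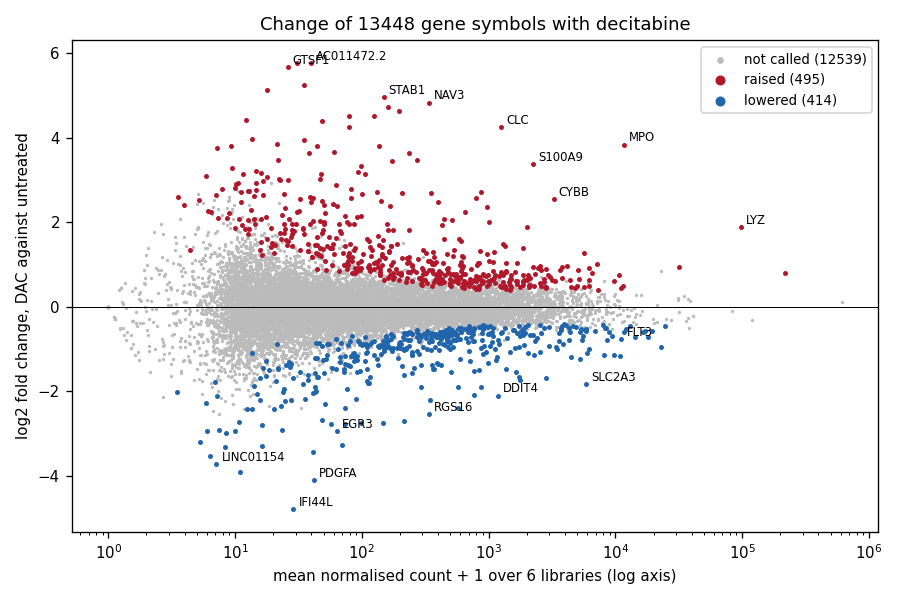
Log2 fold change of DAC against untreated cells (vertical axis) by mean normalised count + 1 over the 6 libraries (log axis) for 13448 gene symbols, with the 495 upregulated genes in red, the 414 downregulated genes in blue and all others in grey. Red points reach further from 0 than blue ones, 42 genes against 10 beyond 8-fold.

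Gene lists drawn from general knowledge, but written with earlier results of these data known, were used to read the 2 sets of genes. They hold 255 of the 798 called protein-coding genes. Counts of list members are descriptions and stand against the 3.68% of all tested genes that were upregulated and the 3.08% that were downregulated. The largest upregulated shares were seen for metallothioneins (6 of 7 tested), granule and secreted antimicrobial proteins (15 of 25), endoplasmic reticulum chaperones and foldases (11 of 31) and p53 targets (13 of 41). The largest downregulated shares were seen for targets of FLT3 and ERK signalling (14 of 32), hypoxia-induced genes (17 of 41), type I interferon-stimulated genes (21 of 54), the guanylate binding proteins with the interferon-gamma axis (6 of 16), sterol and fatty acid synthesis (12 of 37) and secreted cytokines and growth factors (11 of 34). The lists of hypoxia-induced genes, metallothioneins, regulators of G protein signalling, endoplasmic reticulum chaperones and adhesion G protein-coupled receptors were added after the values had been seen. None of the lists is independent of these data.

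**Figure D2:**
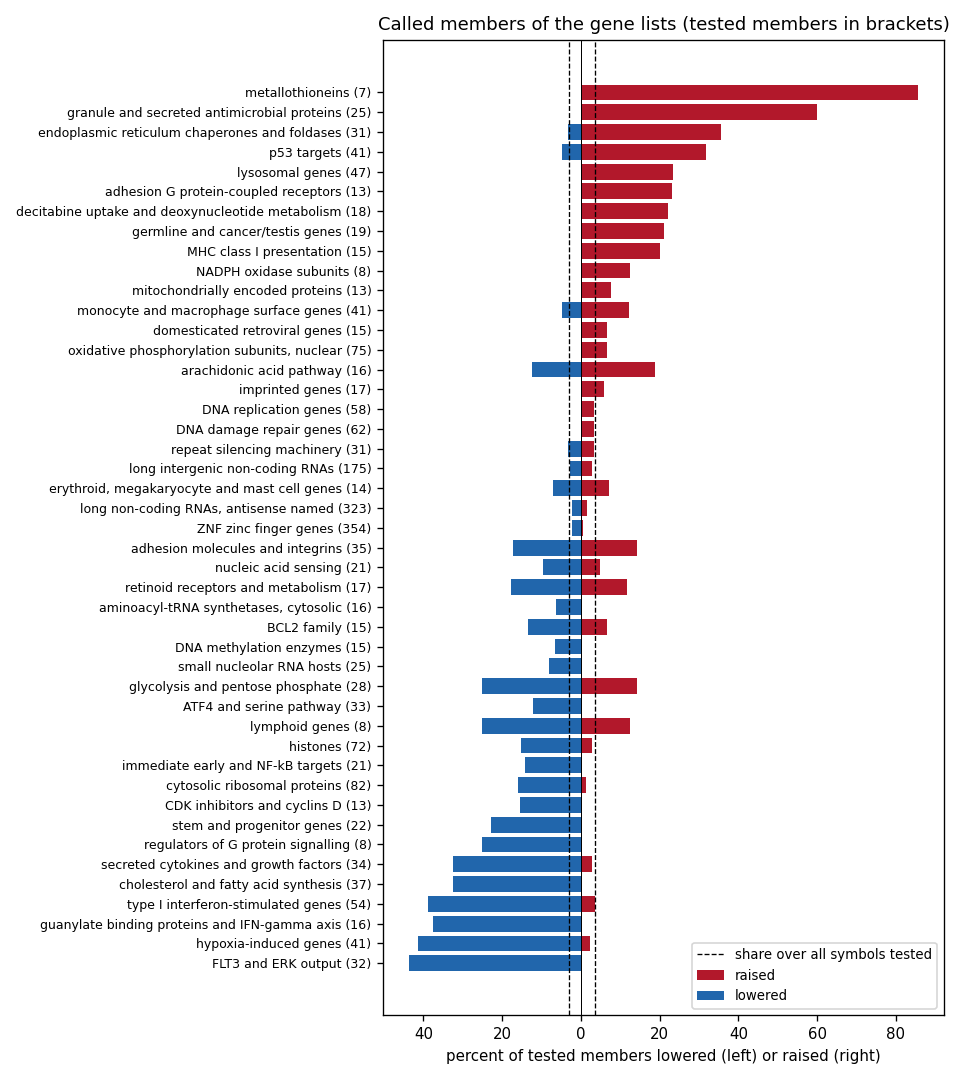
Percent of the tested members of each gene list that were downregulated (blue, to the left) or upregulated (red, to the right) by DAC, with the number of tested members in brackets. The dashed lines mark the shares over all symbols tested, 3.08% and 3.68%, and metallothioneins and granule proteins extend furthest to the right and the FLT3 and ERK and hypoxia lists furthest to the left. Members silent in untreated cells (3 of 19 in the germline list) passed the filter only through treated cells, so the lines are no background for them.

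Genes of granulocyte maturation were upregulated as a group. Of 25 tested genes for granule and secreted antimicrobial proteins, 15 rose and none fell, with a median log2 fold change over the 25 of 1.08, and the same 15 to 0 split was found without DAC replicate 3. CEBPE, a transcription factor required for late granulopoiesis, had 348, 295 and 301 normalised counts in untreated libraries 1 to 3 and 1814, 1598 and 1470 in DAC libraries 1 to 3 (log2 fold change 2.37 ± 0.12 SE, adjusted p = 1.08e-10). MPO, the peroxidase of primary granules, went from 1513, 1515 and 1511 to 27376, 22174 and 16548 (log2 fold change 3.83 ± 0.18 SE, adjusted p = 6.99e-11). Each DAC library held over 10-fold the MPO level of any untreated library. MMP9, the gelatinase of tertiary granules, went from 16.3, 15.4 and 11.3 to 466, 342 and 331 (log2 fold change 4.63 ± 0.17 SE, adjusted p = 1.83e-12). The calprotectin subunits followed, with S100A9 at 467, 363 and 363 in untreated and 3933, 3999 and 4425 in DAC libraries (log2 fold change 3.38 ± 0.13 SE, adjusted p = 1.83e-12) and S100A8 with a log2 fold change of 2.72 ± 0.40 SE (adjusted p = 1.08e-04). S100A12 was nearly silent in untreated cells, with 0, 0.812 and 1.25 normalised counts, and held 28, 26.7 and 18.5 in DAC libraries (adjusted p = 6.10e-04). Resistin (RETN), SRGN, CST7, LYZ and CTSG were also upregulated, with log2 fold changes of 2.82, 0.79, 0.63, 1.88 and 0.91. The call of SRGN was lost when any 1 of the 6 libraries was left out, that of RETN without DAC replicate 1 or 2 or untreated replicate 2 or 3, and that of CST7 without untreated replicate 3. The adjusted p of the alternatives spanned 3.35e-05 to 0.113 for SRGN, 3.17e-04 to 0.0516 for RETN and 2.82e-05 to 0.0115 for CST7. No call was reached by AZU1 (log2 fold change 2.17), BPI (1.08) and ELANE (-0.48), whose products also reside in primary granules.

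Genes of eosinophils were among them. CLC, which encodes the Charcot-Leyden crystal protein galectin-10, had 137, 146 and 95.3 normalised counts in untreated libraries 1 to 3 and 2393, 2693 and 2102 in DAC libraries 1 to 3 (log2 fold change 4.25 ± 0.21 SE, adjusted p = 1.08e-10). PRG3, a homolog of eosinophil major basic protein, went from 28, 27.6 and 28.2 to 281, 332 and 335 (log2 fold change 3.45 ± 0.36 SE, adjusted p = 2.45e-06). Both genes were more than 10-fold higher as a ratio of group means, at 19-fold for CLC and 11.3-fold for PRG3. The eosinophil peroxidase gene EPX and the ribonuclease genes RNASE2 and RNASE3 were lifted less, with log2 fold changes of 1.45 ± 0.18, 1.27 ± 0.17 and 1.08 ± 0.19 (SE). PRG2, the major basic protein gene itself, had a log2 fold change of 0.21 and was not called. Outside the list, PTGDR2, the prostaglandin D2 receptor of eosinophils and basophils, went from 5.44, 13 and 10.7 to 96.7, 73.7 and 75.1 (log2 fold change 3.02 ± 0.45 SE, adjusted p = 1.49e-04). The adhesion receptor genes ADGRE1, ADGRE3 and ADGRG3, the first of which marks human eosinophils, had log2 fold changes of 1.95, 2.11 and 2.14, and they were the 3 upregulated among 13 tested adhesion G protein-coupled receptors. ADGRE1 was not called without untreated replicate 3 (adjusted p = 0.0118, with 2.38e-05 to 0.0321 spanned by the alternatives). CYSLTR2, a leukotriene receptor, went from 2.33, 3.25 and 1.25 to 14, 9.41 and 15.2 normalised counts (adjusted p = 4.85e-04). Of the basophil and mast cell markers, CPA3 had no read in any of these libraries, and HDC, the histidine decarboxylase, which did not pass the filter on low values, went from 2.33, 2.44 and 0.63 to 19.1, 17.3 and 9.80 normalised counts. The part of such cells in these results was not tested. PTGDR2 and the adhesion receptors were picked after their values had been seen.

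Granule genes that rose have starts poor in CpG. In the 250 bases before the start, the 9 upregulated granule genes with a RefSeq promoter held a median of 2 CpG dinucleotides. The 9015 tested genes with a promoter held a median of 21 and all 27305 RefSeq promoters a median of 11. The 7 granule genes that were tested and not upregulated held a median of 7. The promoter of CLC is shown as the example from this group, on the minus strand of GRCh38 at chr19:39738030-39738279, with its 2 CpGs in capitals.
CLC: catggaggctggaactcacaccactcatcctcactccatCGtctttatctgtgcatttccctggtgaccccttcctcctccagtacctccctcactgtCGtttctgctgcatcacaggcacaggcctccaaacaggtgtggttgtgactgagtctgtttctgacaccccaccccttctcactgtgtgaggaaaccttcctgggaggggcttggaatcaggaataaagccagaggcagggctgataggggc

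Surface receptors and effector enzymes of mature myeloid cells were raised in part. Of 41 tested monocyte and macrophage surface genes, 5 rose and 2 fell, and in a fit of the 6 libraries alone 3 rose and none fell. The number that fell was 1 without DAC replicate 2, untreated replicate 1 or untreated replicate 2. STAB1, a scavenger receptor of macrophages, had 9.33, 4.87 and 11.3 normalised counts in untreated libraries 1 to 3 and 342, 295 and 222 in DAC libraries 1 to 3 (log2 fold change 4.96 ± 0.34 SE, adjusted p = 1.40e-08). CD177, a neutrophil surface glycoprotein, went from 12.4, 17.9 and 22.6 to 244, 239.9 and 269.9 (log2 fold change 3.80 ± 0.23 SE, adjusted p = 2.50e-09). FCN1, the secreted lectin of monocytes, went from 7.78, 13.8 and 4.39 to 106, 108 and 118 normalised counts (adjusted p = 7.13e-04). The libraries of both groups did not overlap in any of them. ANPEP (CD13), FGR (a Src-family kinase), ITGAM (CD11b) and FCER1G (the common Fc receptor gamma chain) had log2 fold changes of 2.07, 2.11, 1.42 and 1.15. ITGAM was not called without DAC replicate 1 or 2 or untreated replicate 1 or 3 (adjusted p of the alternatives 0.00142 to 0.0626). CD14, the lipopolysaccharide co-receptor, was not called, with 14, 6.49 and 11.3 and 7.63, 11 and 10.9 normalised counts, and CSF1R had a log2 fold change of -0.18 ± 0.22 SE (adjusted p = 0.648). The costimulatory gene CD80 fell, from 66.9, 70.6 and 60.8 to 26.7, 7.84 and 17.4 normalised counts (log2 fold change -2.02 ± 0.36 SE, adjusted p = 7.34e-04), and CD1A, an antigen-presenting molecule of dendritic cells, went from 10.9, 9.74 and 5.02 normalised counts to 0 in all DAC libraries.

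Of the 8 subunits of the phagocyte oxidase, CYBB rose and the other 7 were not called by limma. DESeq2 called 2 of the 8 subunits and edgeR 1, and 3 were higher at an unadjusted p under 0.05. CYBB encodes gp91phox, the catalytic subunit, and had 943, 1029 and 888 normalised counts in untreated libraries 1 to 3 and 5225, 4949 and 6551 in DAC libraries 1 to 3 (log2 fold change 2.54 ± 0.12 SE, adjusted p = 6.99e-11). NCF1 and NCF4, the cytosolic subunits p47phox and p40phox, had log2 fold changes of 0.03 ± 0.11 and -0.013 ± 0.23 SE, and CYBA, the membrane partner of CYBB, 0.32 ± 0.10 SE. PADI4, which citrullinates histones in neutrophils, went from 7, 4.06 and 6.27 to 141, 183 and 131 (log2 fold change 4.51 ± 0.52 SE, adjusted p = 7.86e-06). CYP4F3, the omega-hydroxylase that inactivates leukotriene B4, went from 4.67, 7.31 and 9.41 to 142, 171 and 135 (log2 fold change 4.25 ± 0.40 SE, adjusted p = 7.83e-07). In the arachidonic acid pathway 3 of 16 tested genes rose and 2 fell, the latter being ALOX12 (log2 fold change -1.51) and ALOX5AP (-0.96). With the 6 libraries fitted alone these counts were 0 and 1, and 4 fell without DAC replicate 3. Both enzymes that turn extracellular ATP into adenosine were called upregulated, ENTPD1 (CD39) from 2.33, 8.93 and 1.25 to 54.7, 108 and 109.9 normalised counts and NT5E (CD73) from 3.89, 0 and 0 to 11.4, 17.2 and 18.5 (adjusted p = 4.22e-06 and 0.00389). NT5E was not called when any 1 library other than untreated replicate 1 was left out (adjusted p of the alternatives 8.95e-04 to 0.0387).

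Metallothioneins were raised, with part of the protein-folding machinery. Metallothioneins are small cysteine-rich proteins that bind zinc and copper, and 6 of 7 tested genes rose, from MT1M to MT1X. MT1M had 7.78, 11.4 and 9.41 normalised counts in untreated libraries 1 to 3 and 267, 256 and 194 in DAC libraries 1 to 3 (log2 fold change 4.51 ± 0.40 SE, adjusted p = 3.91e-07). MT1H went from 45.1, 40.6 and 39.5 to 569.9, 624 and 298 (log2 fold change 3.47 ± 0.34 SE, adjusted p = 1.23e-06). MT1X went from 771, 627 and 639 to 2074, 1968 and 1657 (log2 fold change 1.48 ± 0.13 SE, adjusted p = 3.23e-07). In MT1G, MT1F and MT2A, DAC replicate 3 lay lowest of the DAC libraries but above all untreated libraries. Near-identical copies can share reads in this family, so the split between its members is uncertain. Among 31 endoplasmic reticulum chaperones and foldases 11 rose, with 10 called without DAC replicate 3 and 4 in a fit of the 6 libraries alone, and 1 fell (ERO1B), a number that was 4 without DAC replicate 3 and 0 without any 1 of the other 5 libraries. SDF2L1 went from 253, 287 and 288 to 801, 709 and 495 (log2 fold change 1.25 ± 0.16 SE, adjusted p = 2.21e-05). PDIA4, HYOU1, CALR, PDIA3 and HSP90B1 had log2 fold changes of 1.39, 1.24, 0.95, 0.80 and 0.50. PDIA4 was not called without DAC replicate 1 or 2 or untreated replicate 1 or 2, and HSP90B1 was not called without DAC replicate 3 or any 1 untreated replicate (adjusted p of the alternatives 6.03e-05 to 0.0452 and 7.29e-05 to 0.0711). HSPA5 (BiP), the chief chaperone of this compartment, was not called, at 0.33 ± 0.14 SE (adjusted p = 0.127), nor were HERPUD1 (-0.30) and XBP1 (-0.67), targets of the unfolded protein response. CALR and PDIA3 also serve the loading of MHC class I, of whose 15 tested genes they and HLA-B (log2 fold change 0.91 ± 0.12 SE) were the upregulated members, with 5 upregulated without DAC replicate 3. HLA-B shares reads with other class I genes, and HLA-C and B2M were not called.

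Lysosomal genes rose in 11 of 47 tested and fell in none, and the count was 17 without DAC replicate 3 and 7 in a fit of the 6 libraries alone. FUCA1, the lysosomal fucosidase, had 1029, 1033 and 1009 normalised counts in untreated libraries 1 to 3 and 2542, 2553 and 2958 in DAC libraries 1 to 3 (log2 fold change 1.39 ± 0.094 SE, adjusted p = 1.07e-08). Its level in the DAC libraries spanned a narrow range, apart from every untreated library. Other upregulated members were ARSB, ATP6V0D1, LAMP1, PSAP, MAN2B1, CTSZ, HEXA and LAPTM5, at log2 fold changes of 1.25 for ARSB, 1.07 for ATP6V0D1 and 0.95 for LAMP1. DRAM1, a lysosomal membrane protein and p53 target that no list held, went from 457, 419.7 and 341 to 1567, 1543 and 1734 (log2 fold change 2.0 ± 0.12 SE, adjusted p = 3.07e-09).

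Targets of p53 rose in 13 of 41 tested and fell in 2, and the count was 14 and 3 without DAC replicate 3 and 8 and 1 in a fit of the 6 libraries alone. TP53I3 (PIG3), an oxidoreductase, had 1.56, 4.87 and 2.51 normalised counts in untreated libraries 1 to 3 and 31.8, 36.1 and 25 in DAC libraries 1 to 3 (log2 fold change 3.08 ± 0.33 SE, adjusted p = 2.96e-06). ZMAT3, an RNA-binding protein, went from 285, 300.4 and 316 to 631, 751 and 915 (log2 fold change 1.33 ± 0.13 SE, adjusted p = 7.71e-07). The pro-apoptotic BAX went from 233, 224 and 258 to 614, 445 and 420.2 (log2 fold change 1.03 ± 0.14 SE, adjusted p = 4.89e-05). MDM2, the ubiquitin ligase that restrains p53, was higher in each DAC library than in any untreated one, at 4198, 4441 and 5608 against 2587, 2694 and 2453 normalised counts (adjusted p = 4.22e-05). TIGAR, TRIM22, PLK2, TNFAIP8, AEN, TM7SF3, RPS27L, SESN1 and XPC were the other upregulated members, with log2 fold changes from 0.61 (XPC) to 1.40 (TIGAR). RPS27L was not called without DAC replicate 3 or any 1 untreated replicate (adjusted p of the alternatives 2.70e-04 to 0.0433). CDKN1A (p21), the best known target, was not called, at 88.7, 138 and 119 normalised counts in untreated and 204, 172 and 133 in DAC libraries (log2 fold change 0.56 ± 0.27 SE, adjusted p = 0.195). BTG2 and PMAIP1 went against the rest. BTG2, an antiproliferative gene that growth factors also induce, went from 2576, 2442 and 2285 to 804, 754 and 940.5 (log2 fold change -1.55 ± 0.12 SE, adjusted p = 8.00e-08). PMAIP1 (NOXA), a BH3-only protein, went from 851, 578 and 405 to 156, 215 and 329.8 (log2 fold change -1.38 ± 0.23 SE, adjusted p = 4.53e-04). Within the BCL2 family BAX was the upregulated and BCL2 (log2 fold change -0.81) and PMAIP1 were the downregulated members of 15, and BCL2 was not called when any 1 library other than DAC replicate 3 was left out (adjusted p of the alternatives 1.98e-04 to 0.0353). BBC3 (PUMA), a further p53 target of that family, had a log2 fold change of -0.013.

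Genes silent in untreated cells are the class for which the drug is best known. Of the tested genes, 128 held at most 3 reads in each untreated library, and 19 of them were upregulated, 12 protein-coding and 7 long non-coding. These genes passed the filter on low values only through libraries of treated cells, so their number has no background to be read against. Among 142 listed germline and cancer/testis genes, 19 could be tested and 4 rose. Of the 19, 3 held at most 3 reads in each untreated library, so this share has no background to be read against either. Of those untested, 109 had at most 3 reads in each untreated and DAC library. Levels of GTSF1, a factor of the piRNA pathway in germ cells, were 0 in all untreated libraries and 43.3, 51.8 and 55.5 in DAC libraries, at least 22.6-fold higher against a floor of 3 reads per library (adjusted p = 1.40e-07). For TKTL1, a transketolase-like gene of the testis, they were 0 and 73.8, 76.8 and 27.2, at least 26.7-fold higher (adjusted p = 2.00e-05). Neither gene had a read in any untreated or ATRA library. Both thus passed the filter only through cells given DAC, and their p-values are no separate evidence of a rise. MAGEB2 and PIWIL4, the other upregulated members, were expressed before treatment, MAGEB2 at 26.4, 27.6 and 23.8 normalised counts in untreated and 87.8, 109.8 and 113 in DAC libraries (log2 fold change 1.95 ± 0.28 SE) and PIWIL4 with a log2 fold change of 0.74 ± 0.12 SE. H1-6, the testis-specific linker histone, went from 24.9, 13 and 15.1 to 75.1, 84.7 and 139 (log2 fold change 2.43 ± 0.34 SE, adjusted p = 6.57e-05).

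The list of domesticated retroviral genes had 1 upregulated gene of 15 tested, PNMA5, which went from 0 in all untreated libraries to 34.3, 20.4 and 12 normalised counts, at least 10.03-fold higher. The list of imprinted genes likewise had 1 of 17, MKRN3, which is expressed from the paternal allele only, with 0, 0.812 and 0 normalised counts in untreated and 15.3, 20.4 and 13.1 in DAC libraries (adjusted p = 2.35e-04). Among 354 tested zinc finger genes named ZNF, 2 rose (ZNF595 from 0 to 29.3, 37.6 and 34.8 normalised counts, and ZNF350) and 8 fell, and without DAC replicate 3 the numbers were 5 and 31. Without untreated replicate 1 or 2, 5 fell, and without untreated replicate 2 or 3, 1 rose. The downregulated ZNF genes were led by ZNF556 (log2 fold change -1.53 ± 0.26 SE). PNMA5, MKRN3 and ZNF595 were silent in untreated cells and passed the filter on low values only through cells given DAC. Other genes that went from near 0 to a clear level were DLL4, a Notch ligand, from 2.33, 0.812 and 1.88 to 42, 18.8 and 15.2 normalised counts (adjusted p = 2.35e-04), and OLIG1, a basic helix-loop-helix factor, from 7, 33.3 and 18.8 to 182, 183 and 159 (adjusted p = 8.56e-06). PAX8-AS1 was the one antisense-named RNA to start from 0 in all untreated libraries among the named genes, with 14, 12.5 and 10.9 in DAC libraries (at least 5.63-fold higher).

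GTSF1 is shown for its start, which holds 8 CpGs in 250 bases. It lies on the minus strand of GRCh38 at chr12:54473603-54473852, inside the annotated span of the antisense RNA gene GPR84-AS1, and its CpGs are in capitals.
GTSF1: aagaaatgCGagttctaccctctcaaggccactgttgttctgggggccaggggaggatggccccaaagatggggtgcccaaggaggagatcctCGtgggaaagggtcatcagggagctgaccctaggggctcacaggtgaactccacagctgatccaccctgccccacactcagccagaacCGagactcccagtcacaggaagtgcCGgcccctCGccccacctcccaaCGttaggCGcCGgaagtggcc
Genes were also grouped by the CpG number of the same window. With 0 to 4 CpGs, 54 of 756 tested genes rose (7.14%) and 42 fell (5.56%). With 5 to 14 CpGs, 3.68% rose and 3.57% fell, and with 15 or more CpGs, 234 of 6576 rose (3.56%) and 179 fell (2.72%). Both directions thus had their highest share among starts poor in CpG. Genes upregulated over 4-fold had a median of 9 CpGs (69 promoters), those downregulated over 4-fold 14.5 (24 promoters), and those upregulated from at most 3 reads 10 (13 promoters), against 21 over all tested genes. The median over all 27305 RefSeq promoters, whether their genes passed the filter on low values or not, was 11. A promoter was found for 67.0% of the tested genes, and methylation at these bases was not measured.

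The list of DNA methylation enzymes and readers had 15 tested members, of which TET1 alone was called. TET1, a methylcytosine dioxygenase, had 264, 199.7 and 238 normalised counts in untreated libraries 1 to 3 and 102, 105 and 150.2 in DAC libraries 1 to 3 (log2 fold change -0.98 ± 0.19 SE, adjusted p = 0.00168). This call was lost without DAC replicate 2 or without untreated replicate 1, at adjusted p of 0.0109 and 0.0142, and the alternatives together spanned 3.84e-05 to 0.0192. The drug's target DNMT1 had 31.9, 47.9 and 53.9 normalised counts in untreated and 89, 84.7 and 59.9 in DAC libraries (log2 fold change 0.80 ± 0.27 SE, adjusted p = 0.0562). All 3 DAC libraries lay above the untreated ones. These counts are lower limits, as reads shared by several transcripts of a gene seem to be missing. DNMT3A, UHRF1, TET2 and TET3 had log2 fold changes of -0.39, 0.015, 0.57 and -0.16, and the remaining 9 members ranged from -0.74 (ZBTB33) to 0.34 (MBD3).

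A minority of the genes listed for nucleoside handling, some of which act on the drug itself, were raised. Of 18 tested genes of nucleoside uptake and deoxynucleotide metabolism 4 rose and none fell. SLC28A3, a concentrative nucleoside transporter, had 10.1, 4.06 and 2.51 normalised counts in untreated libraries 1 to 3 and 87.8, 94.1 and 62 in DAC libraries 1 to 3 (log2 fold change 3.80 ± 0.53 SE, adjusted p = 6.59e-05). CDA, the cytidine deaminase that inactivates DAC, went from 15.6, 17.9 and 24.5 to 127, 94.1 and 93.6 (log2 fold change 2.39 ± 0.53 SE, adjusted p = 0.00506). SAMHD1, the phosphohydrolase that breaks down deoxynucleotide triphosphates, including that of DAC, went from 192, 187 and 163 to 338, 319.9 and 327 (log2 fold change 0.86 ± 0.10 SE, adjusted p = 1.12e-05). DTYMK, the thymidylate kinase, had a log2 fold change of 0.61 ± 0.13 SE. The list had 2 upregulated members when any 1 library other than DAC replicate 3 was left out. CDA was not called when any 1 of the 6 libraries was left out, and DTYMK was called only without DAC replicate 3 among these (adjusted p of the alternatives 2.53e-11 to 0.176 and 2.53e-04 to 0.0275). The pentose phosphate pathway, which makes NADPH and ribose, had among its upregulated genes PGD (log2 fold change 1.01 ± 0.12 SE) and TALDO1 (0.61 ± 0.12 SE), the latter not called without untreated replicate 1 or 2 (adjusted p of the alternatives 3.66e-05 to 0.0234).

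**Figure D3:**
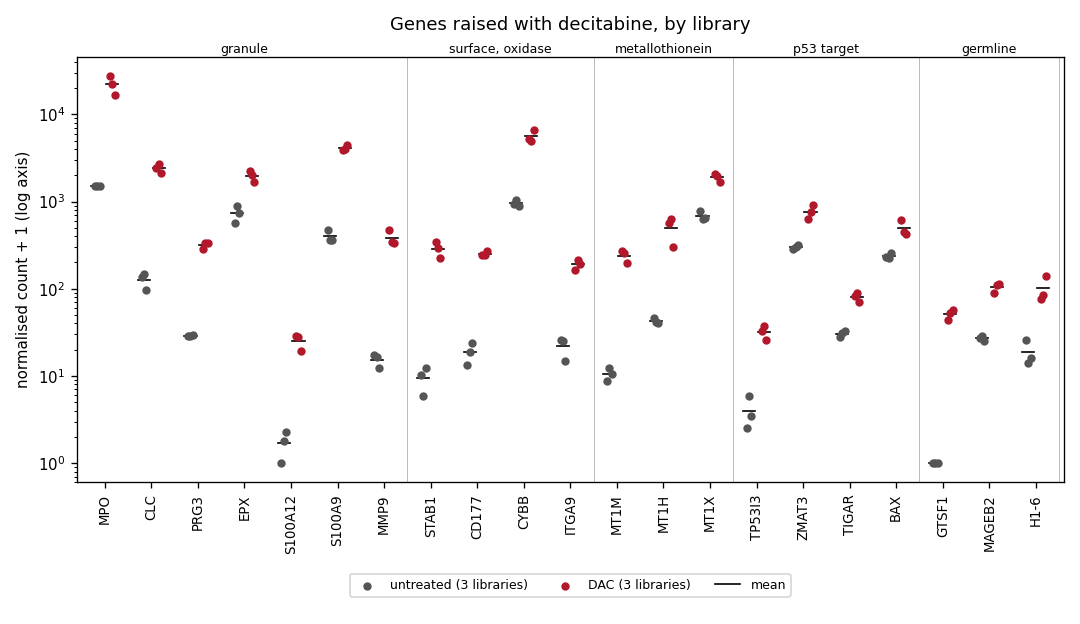
Normalised count + 1 (log axis) in the 3 untreated (grey) and 3 DAC libraries (red) of 21 upregulated genes grouped by role, each point a library and each bar a group mean. The points of both groups do not overlap for any gene shown, and GTSF1 rises from 0 in all untreated libraries.

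Interferon-stimulated genes formed the list with most downregulated members. Of 54 tested, 21 fell and 2 rose, with a median log2 fold change over the 54 of -0.60, and the number lowered was 24 without DAC replicate 3 and 11 without untreated replicate 2 or in a fit of the 6 libraries alone. IFI44, an interferon-induced cytoplasmic protein, had 116, 172 and 87.2 normalised counts in untreated libraries 1 to 3 and 7.63, 9.41 and 20.7 in DAC libraries 1 to 3 (log2 fold change -3.28 ± 0.35 SE, adjusted p = 2.82e-06). IFIT3, a binding partner of the RNA sensor IFIT1, went from 93.3, 122 and 77.2 to 12.7, 20.4 and 8.71 (log2 fold change -2.77 ± 0.28 SE, adjusted p = 1.96e-06). RSAD2 (viperin), an antiviral enzyme, went from 145, 184 and 106 to 17.8, 34.5 and 44.6 (log2 fold change -2.19 ± 0.27 SE, adjusted p = 1.53e-05). In untreated cells the 3 genes were spread by less than 2-fold between libraries, and every DAC library lay below every untreated one. The oligoadenylate synthetase genes OAS2 and OAS3 and the deconjugase USP18 had log2 fold changes of -2.18, -2.0 and -2.31. IRF9, the DNA-binding subunit of the factor ISGF3, went from 110.4, 114 and 125 to 33.1, 47 and 52.2 (log2 fold change -1.41 ± 0.20 SE, adjusted p = 8.12e-05). The 2 upregulated members were TRIM22, which is also a p53 target, and TRIM14, with log2 fold changes of 1.07 and 0.76. Among 21 nucleic acid sensors MNDA rose (log2 fold change 1.88) and CGAS (-0.82) and DHX58 (-0.82) fell, and without DAC replicate 2 neither of the latter calls was made. The number that fell was 1 without DAC replicate 1 or untreated replicate 1 or 2, and 4 without DAC replicate 3.

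An element of interferon-stimulated genes was searched for near their starts. The interferon-stimulated response element (ISRE), the site of ISGF3, was searched as GAAA, any 2 bases and GAAA again, on both strands of the 250 bases before the start. It was found in 10 of the 15 downregulated interferon-stimulated genes with a promoter (66.7%), in 13 of the 26 interferon-stimulated genes tested and not downregulated (50%), in 223 of the 9015 tested genes (2.47%) and in 3.07% of all RefSeq promoters. The 10 genes were IFI44L, IFI44, IFIT3, OAS3, HERC5, DDX60, IFIT5, ISG15, RTP4 and PARP14, of which ISG15 was not called without untreated replicate 1 or 2 (adjusted p of the alternatives 2.81e-04 to 0.0488). IFI44L and IFIT3 held 2 matches each. For 3 genes 1 match is shown in its 30 bases on the plus strand of GRCh38, with the element in capitals, at chr1:78620365-78620394 for IFI44L, chr1:78649759-78649788 for IFI44 and chr10:89327865-89327894 for IFIT3.
IFI44L: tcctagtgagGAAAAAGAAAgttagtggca
IFI44: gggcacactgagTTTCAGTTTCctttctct
IFIT3: tttaaattagTTTCACTTTCcagtttcctc
A match describes the letters and does not show binding.

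The guanylate binding proteins and the interferon-gamma axis had 6 downregulated of 16 tested genes and none upregulated, with 3 downregulated in a fit of the 6 libraries alone. GBP2, a GTPase induced by interferon gamma, went from 1432, 1500 and 1300 to 478, 503 and 709.7 (log2 fold change -1.34 ± 0.14 SE, adjusted p = 3.09e-06). ICAM1, the ligand of leukocyte integrins, went from 631, 584 and 507 to 251, 210.1 and 214 (log2 fold change -1.35 ± 0.12 SE, adjusted p = 3.97e-07). IRF1 was not called (log2 fold change -0.52 ± 0.14 SE, adjusted p = 0.0171). The groups separated in all 3 genes.

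Part of the genes listed as output of growth factor signalling were lowered, and signalling itself was not measured. MOLM-13 depends on the receptor kinase FLT3, whose signal runs through STAT5 and ERK to genes such as the PIM, SOCS, EGR and DUSP families. Of 32 tested genes of this output, 14 fell and none rose (13 without DAC replicate 3, 8 in a fit of the 6 libraries alone). EGR3, an immediate early transcription factor, had 127, 98.2 and 104 normalised counts in untreated libraries 1 to 3 and 7.63, 25.1 and 12 in DAC libraries 1 to 3 (log2 fold change -2.94 ± 0.32 SE, adjusted p = 3.12e-06). JUN went from 492, 602 and 466 to 223, 196 and 177 (log2 fold change -1.38 ± 0.17 SE, adjusted p = 1.67e-05). IL2RA, a STAT5 target, went from 67.7, 77.1 and 52.1 to 12.7, 18.8 and 14.2 (log2 fold change -2.04 ± 0.33 SE, adjusted p = 3.44e-04). The others were EGR2, CISH, SOCS3, EGR1, DUSP5, DUSP7, SOCS2, PIM1, ETV5, JUNB and PIM3. EGR2 was not called without DAC replicate 2 or any 1 untreated replicate, and EGR1 was not called without untreated replicate 3 (adjusted p of the alternatives 9.46e-04 to 0.028 and 1.00e-04 to 0.0265). DUSP6, an ERK phosphatase under direct control of the pathway, was not called (log2 fold change 0.21 ± 0.14 SE, adjusted p = 0.347). FLT3 itself went from 14247, 13963 and 13871 to 7791, 7493 and 9559 (log2 fold change -0.77 ± 0.11 SE, adjusted p = 7.20e-05). Its libraries did not overlap.

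Several secreted factors were lowered. Of 34 tested cytokines and growth factors 11 fell and 1 rose, and 7 fell without untreated replicate 2. In a fit of the 6 libraries alone, 6 fell and none rose. PDGFB, a platelet-derived growth factor chain, went from 12.4, 15.4 and 11.9 to 0, 4.70 and 0 normalised counts (adjusted p = 0.00452), a call that was lost when any 1 library other than DAC replicate 2 was left out (adjusted p of the alternatives 3.60e-04 to 0.0324). OSM, a cytokine of the interleukin 6 family, went from 580.1, 582 and 534 to 155, 132 and 87.1 (log2 fold change -2.21 ± 0.39 SE, adjusted p = 6.49e-04). CXCL8 (interleukin 8) went from 3272, 2548 and 2342 to 621, 794 and 1049 (log2 fold change -1.75 ± 0.18 SE, adjusted p = 1.69e-06). CCL24, CCL3L3, CSF1, VEGFB, EREG, HBEGF, IL23A and PDGFA were the other downregulated members, and CCL3L3 has near-identical copies. CSF1 was not called without DAC replicate 1 or 2 or untreated replicate 1 or 2 (adjusted p of the alternatives 0.0027 to 0.0483). TNFSF10 (TRAIL), the death ligand, rose with a log2 fold change of 0.89 ± 0.18 SE, a call that was lost without DAC replicate 2 or untreated replicate 3 (adjusted p = 0.0108 and 0.0171, with 3.92e-05 to 0.0238 spanned by the alternatives). A pair of regulators of G protein signalling was among the largest falls, RGS1 with 417, 390.5 and 290.4 normalised counts in untreated and 31.8, 61.2 and 82.7 in DAC libraries and RGS16 with 561, 605 and 551 and 123, 97.2 and 76.2 (adjusted p = 4.48e-06 and 9.73e-09). OCSTAMP, a fusion protein of osteoclasts, went from 898, 1048 and 943 to 256, 177 and 134 (log2 fold change -2.39 ± 0.17 SE, adjusted p = 2.33e-08).

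Adhesion genes changed in both directions, with 5 upregulated and 6 downregulated among 35. ITGA9, an integrin alpha chain, had 24.9, 24.4 and 13.8 normalised counts in untreated libraries 1 to 3 and 163, 215 and 189 in DAC libraries 1 to 3 (log2 fold change 3.15 ± 0.29 SE, adjusted p = 5.42e-07). ITGB7 also rose (log2 fold change 1.45 ± 0.16 SE). ITGA5, the fibronectin receptor chain, went from 7830, 9036 and 7769 to 4340, 3839 and 3342 (log2 fold change -1.10 ± 0.12 SE, adjusted p = 2.54e-06). ITGAL (CD11a) and THBS1 (thrombospondin 1) had log2 fold changes of -0.81 and -1.53. Upregulated members numbered 3 without DAC replicate 2 or untreated replicate 1 and in a fit of the 6 libraries alone.

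Hypoxia-induced genes fell in 17 of 41 tested, with a median log2 fold change over the 41 of -0.74, and the number was 15 to 18 with any 1 library left out. EGLN3, the prolyl hydroxylase that marks hypoxia-inducible factor for degradation, had 44.3, 34.9 and 32.6 normalised counts in untreated libraries 1 to 3 and 5.09, 9.41 and 5.44 in DAC libraries 1 to 3 (log2 fold change -2.36 ± 0.39 SE, adjusted p = 3.75e-04). BNIP3, a mitophagy receptor, went from 4857, 4202 and 3882 to 1215, 1283 and 1559 (log2 fold change -1.68 ± 0.16 SE, adjusted p = 7.30e-07). DDIT4 (REDD1), an inhibitor of mTORC1 that hypoxia and ATF4 induce, went from 1987, 2036 and 1746 to 492, 434 and 415 (log2 fold change -2.10 ± 0.11 SE, adjusted p = 2.39e-10). In each of these the highest DAC library was below the lowest untreated library. Glucose use was part of this list. SLC2A3 (GLUT3), a glucose transporter, went from 10178, 9238 and 8172 to 2403, 2508 and 2818 (log2 fold change -1.83 ± 0.15 SE, adjusted p = 1.40e-07). PFKFB4, ALDOC, GAPDH, PGK1 and ENO1 had log2 fold changes of -1.89, -1.55, -0.87, -0.79 and -0.60. ENO1 was not called without DAC replicate 2 or untreated replicate 1 or 2 (adjusted p of the alternatives 1.50e-05 to 0.0341). Within glycolysis and the pentose phosphate pathway 7 of 28 tested genes fell and 4 rose, HK3, PGD and TALDO1 among them, with 8 raised without DAC replicate 3. HK3, a hexokinase of myeloid cells, went from 212, 214 and 242 to 1368, 1104 and 783 (log2 fold change 2.24 ± 0.18 SE, adjusted p = 8.11e-08). CXCR4, the receptor of CXCL12 and also a hypoxia target, was the upregulated member of the hypoxia list (log2 fold change 0.84 ± 0.18 SE), a call that was not made when any 1 library other than DAC replicate 3 was left out. The core of the hypoxia response element, ACGTG, was found in the 250 bases before the start of 9 of 13 downregulated members with a promoter (69.2%) and in 23.6% of the 9015 tested genes (both strands). Listed genes that did not fall were not counted apart, so a tie between this element and the fall was not tested.

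Part of the genes of sterol synthesis were lowered. Of 37 tested genes of cholesterol and fatty acid synthesis 12 fell and none rose, with 13 downregulated without DAC replicate 3. HMGCS1, the synthase at the entry of the mevalonate pathway, had 402, 513 and 699 normalised counts in untreated libraries 1 to 3 and 204, 256 and 127 in DAC libraries 1 to 3 (log2 fold change -1.48 ± 0.27 SE, adjusted p = 8.30e-04). MSMO1, a sterol methyl oxidase, went from 342, 289.8 and 274 to 106, 133 and 104 (log2 fold change -1.39 ± 0.24 SE, adjusted p = 5.09e-04). INSIG1, which retains the SREBP complex when sterols are plentiful, went from 3565, 3558 and 3147 to 1878, 1542 and 1517 (log2 fold change -1.06 ± 0.15 SE, adjusted p = 5.73e-05). The fall is visible in every DAC library of these genes. SQLE (squalene epoxidase) had a log2 fold change of -0.96 ± 0.11 SE, and STARD4, CYP51A1, MVD, SCD, HSD17B7 and EBP were also downregulated. The sterol element searched as TCACNCCAC was found in none of the 9 downregulated members with a promoter and in 0.887% of the tested genes. Targets of the stress factor ATF4 fell in 4 of 33 (2 without untreated replicate 1 or 2), DDIT4, TRIB3, SLC3A2 and SLC38A2. TRIB3, a pseudokinase, went from 2538, 2680 and 2616 to 924, 828 and 739 (log2 fold change -1.66 ± 0.12 SE, adjusted p = 1.87e-08).

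Progenitor genes were lowered by small amounts. Of 22 tested 5 fell and none rose, FLT3, HOXA5, HOXA9, HOXA11 and SATB1. Only 3 were called without DAC replicate 1, DAC replicate 2 or untreated replicate 1. The number was 1 without untreated replicate 2 or in a fit of the 6 libraries alone. HOXA9, a homeobox gene that MLL fusions activate, had 1538, 1550 and 1497 normalised counts in untreated libraries 1 to 3 and 889, 899 and 1197 in DAC libraries 1 to 3 (log2 fold change -0.63 ± 0.12 SE, adjusted p = 0.0019). The transcription factors CEBPA, SPI1 and GFI1 had log2 fold changes of -0.36, 0.17 and -0.30 and were not called. Among the inhibitors of cyclin-dependent kinases CDKN2C (-0.95) and CDKN1B (-0.52) were the downregulated genes. Of these, 1 was called without DAC replicate 1, DAC replicate 2 or untreated replicate 2, and none without untreated replicate 1 or in a fit of the 6 libraries alone. Among DNA replication genes 2 of 58 were upregulated (PCNA and E2F2), the number being 1 without DAC replicate 1 or 2 or untreated replicate 1 or 3. Their median log2 fold change was 0.29, with 46 of the 58 positive and 12 negative. In 26 all DAC libraries lay above all untreated ones and in 2 below, where 15.1% and 13.9% of all tested genes did so. In DAC+ATRA against ATRA alone, 18 of the 58 were called upregulated and none downregulated (5.33% and 4.96% over all tested genes). None of 65 mitosis genes was called, 6 of them higher at an unadjusted p under 0.05 and none called by DESeq2 or edgeR.

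**Figure D4:**
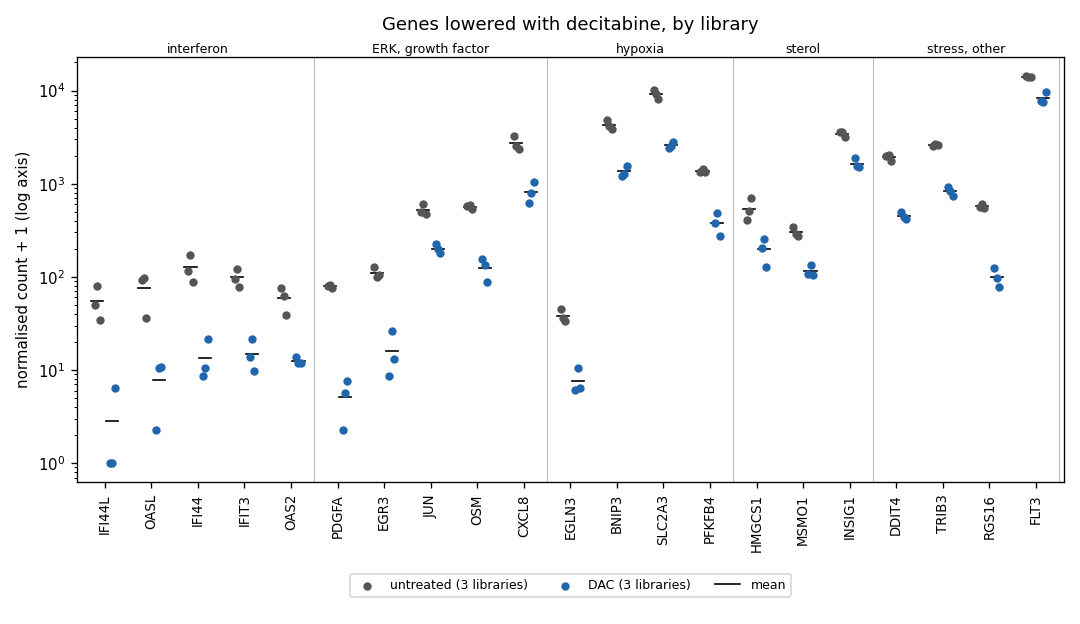
Normalised count + 1 (log axis) in the 3 untreated (grey) and 3 DAC libraries (blue) of 21 downregulated genes grouped by role, each point a library and each bar a group mean. All DAC points lie below all untreated points of the same gene, for genes as low as IFI44L and as high as FLT3.

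Protein synthesis and chromatin genes moved by little. Of 82 tested cytosolic ribosomal protein genes 13 fell and 1 rose, with a median log2 fold change of -0.27. The number lowered rested on single libraries, with 21 without DAC replicate 3, 5 without DAC replicate 1 or 2 and 3 without untreated replicate 1 or 2. In a fit of the 6 libraries alone, 1 was lowered and none raised. RPL37A had 8277, 8833 and 7574 normalised counts in untreated libraries 1 to 3 and 3568, 5126 and 3858 in DAC libraries 1 to 3 (log2 fold change -0.99 ± 0.14 SE, adjusted p = 1.07e-04). Many pseudogenes resemble these genes, so reads may be split between copies. The upregulated member was RPS27L, a ribosomal protein-like p53 target. Of 72 histone genes 11 fell and 2 rose, with 5 lowered without DAC replicate 1 or 2, 4 without untreated replicate 1 and 3 without untreated replicate 2. A fit of the 6 libraries alone had 4 lowered histone genes. The linker histones went apart. H1-1 and H1-6 rose, at log2 fold changes of 1.80 and 2.43, and H1-2 (-0.72) and H1-3 (-0.80) fell. Of 75 nuclear subunits of oxidative phosphorylation 5 rose and none fell, a number that varied from 0 to 9 with 1 library left out (0 without DAC replicate 1 or untreated replicate 2 or 3). Mitochondrial ribosomal proteins had no called gene of 76, with 10 higher and 4 lower at an unadjusted p under 0.05, 1 call by DESeq2 and none by edgeR.

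Long non-coding RNAs changed in both directions. Of 2181 long non-coding RNAs tested, 46 were upregulated (2.11%) and 50 downregulated (2.29%), where 441 (4.14%) and 357 (3.35%) of 10641 protein-coding genes were. This difference was not tested. None of 191 small nucleolar RNAs and 67 microRNA precursors was called by limma. Without DAC replicate 3, 1 small nucleolar RNA was upregulated and 2 were downregulated, and 2 microRNA precursors were downregulated. Without DAC replicate 3 and untreated replicate 3, 8 small nucleolar RNAs were upregulated and 2 downregulated, and 4 microRNA precursors were upregulated and 1 downregulated. At an unadjusted p under 0.05, 8 small nucleolar RNAs were higher and 16 lower, and 4 microRNA precursors were higher and 5 lower. DESeq2 called 1 microRNA precursor and no small nucleolar RNA, and edgeR called none of either. The microRNA entries are precursors, which overlap their host genes, and mature microRNAs were not analysed here.

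The largest rises among non-coding RNAs started from almost nothing. AC011472.2 went from 0.778, 0 and 0.627 to 69.97, 78.4 and 81.6 normalised counts in the 3 libraries of each group (adjusted p = 7.60e-08). It overlaps TSPAN16, which rose as well (log2 fold change 3.08), and reads of overlapping genes may not be separable. AC104823.1 went from 0, 2.44 and 0.627 to 57.2, 69 and 75.1 (adjusted p = 1.54e-05), and LINC02212 from 3.11, 6.49 and 5.02 to 72.5, 83.1 and 55.5 (adjusted p = 8.95e-04). No overlap between the groups was seen in the 3 RNAs. AL713998.1 went from 28.8, 31.7 and 40.8 to 313, 508 and 496 (log2 fold change 3.64 ± 0.19 SE, adjusted p = 2.39e-10). Among downregulated RNAs, LINC01229 went from 63, 99.9 and 87.2 to 12.7, 11 and 12 (log2 fold change -2.69 ± 0.33 SE, adjusted p = 1.43e-05). EPB41L4A-AS1 and SNHG15, hosts of small nucleolar RNAs, fell with log2 fold changes of -0.64 and -0.57, the latter not called without DAC replicate 2 or untreated replicate 1 or 3 (adjusted p of the alternatives 3.65e-05 to 0.013).

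At its locus on chromosome 12, GTSF1 moved in the opposite direction to the antisense transcripts, and the other coding genes there did not rise. AC079313.2, whose identifier is that of GPR84-AS1 and which spans GTSF1, GPR84 and ITGA5 on the other strand, fell from 21, 13.8 and 15.7 to 1.27, 1.57 and 1.09 normalised counts (adjusted p = 6.14e-06). LINC01154, which overlaps AC079313.2 on the same strand, went from 10.9, 14.6 and 11.3 to 0 in all DAC libraries, at least 3.12-fold lower. ITGA5 fell as given above, GPR84 and ZNF385A were not called (log2 fold changes of -0.65 and -0.41), and GTSF1 rose from 0. Over the genome, the nearest protein-coding gene of the 46 upregulated long non-coding RNAs was upregulated for 3 and downregulated for 3, with 14 of the RNAs overlapping it. For the 50 downregulated RNAs it was upregulated for 1 and downregulated for 10, with 22 overlapping. Of all tested protein-coding genes 4.14% were upregulated and 3.35% downregulated. Reads of overlapping genes may not be separable, and their part in these counts was not tested.

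DAC can also be compared in the 6 libraries of cells that received ATRA, which share no library with the comparison above. The labels give 72 h for both of these groups, so if they hold this comparison lacks the difference in time between DAC (72 h) and untreated (96 h) cells, and ATRA and that difference cannot be told apart in the interaction. There, 717 genes were upregulated (5.33% of 13448) and 667 downregulated (4.96%) by DAC+ATRA against ATRA alone. Of the 495 genes upregulated by DAC alone, 454 (91.7%) had a positive change there too and 238 (48.1%) were called in the same direction, with 7 called in the opposite direction. Of the 414 downregulated genes, 378 (91.3%) were negative and 203 (49.0%) called in the same direction, with 4 opposite. Over all tested genes 51.2% were positive in cells with ATRA. Seen from the other side, 33.2% of the genes upregulated and 30.4% of those downregulated in cells with ATRA were so called with DAC alone. The median change of the upregulated genes was 0.67 with ATRA (log2) and that of the downregulated genes -0.60. A difference between both DAC effects (interaction, adjusted p under 0.01) was called for 173 of all tested genes (1.29%), 33 of the upregulated and 43 of the downregulated genes. Genes called with DAC alone were chosen for a large change there, so a smaller one elsewhere is partly set by that choice. Both comparisons came from 1 fit of all 12 libraries and share its estimate of the spread. The calls in both are therefore not independent.

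The called gene groups were followed in cells with ATRA. All 4 upregulated germline genes, all 13 upregulated p53 targets and all 11 upregulated lysosomal genes had a positive change, and 4, 9 and 7 of them were called upregulated. The 7 downregulated glycolysis genes were all called downregulated again, with a median log2 fold change of -1.36 in cells with ATRA and -0.87 without. The 12 downregulated sterol genes were all negative and 6 of them were called. The 21 downregulated interferon-stimulated genes did not follow. Of these, 8 had a negative change, none was called downregulated, and the interaction was called for 14, with a median of -1.41 without and 0.24 with ATRA. IFI44 held 20.6, 23.1 and 15.9 normalised counts in ATRA libraries 1 to 3 and 43.4, 28.1 and 34.7 in DAC+ATRA libraries 1 to 3, a log2 difference of 0.80 where DAC alone gave -3.28 (interaction adjusted p = 6.22e-05). With ATRA alone the gene was already below every untreated library. OAS3 held 195, 164 and 161 and 279, 276 and 286, higher with DAC in all 3 libraries (interaction adjusted p = 1.53e-05).

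**Figure D5:**
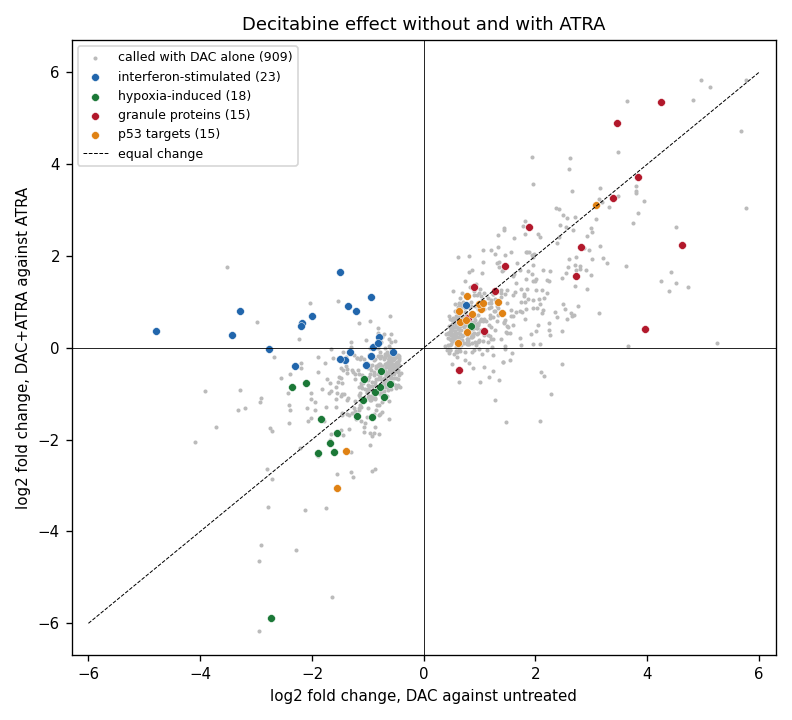
Log2 fold change of DAC against untreated (horizontal axis) and of DAC+ATRA against ATRA (vertical axis) for the 909 genes called with DAC alone, with called members of 4 gene lists in colour and a dashed line of equal change. Most points lie in the lower left and upper right parts, while most interferon-stimulated genes (blue) lie above 0 on the vertical axis.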

How the data were processed

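RNA of MOLM-13 cells (12 libraries, 3 in each of the 4 groups) was depleted of ribosomal RNA and sequenced strand-specifically. According to the study and the submitters' processing notes, the authors used FastQC, STAR, HTSeq and DESeq2 with hg38, and versions and annotation release are not given in the sources used here. The deposited values are a normalised signal, made by the authors by dividing reads per Ensembl transcript by a size factor of the library. All values (100%) were whole multiples of 1 read within a tolerance of 0.001, so reads could be recovered. Reads shared by several transcripts of a gene seem to be missing from the table, so levels are lower limits and cannot be compared between genes. The 100502 rows were summed to 46639 symbols. Biotypes and positions came from GENCODE 44 (GRCh38), which matched 88.9% of rows, and promoters from RefSeq (GRCh38.p14).

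The 13448 genes that reached 10 normalised counts in 3 or more of the 12 libraries were tested with limma 3.58.1 in R 4.3.3 (lmFit, eBayes with trend) on log2(normalised count + 1). All 12 libraries entered with 1 coefficient per group. P-values were adjusted by Benjamini-Hochberg over all genes tested, two-sided, and called under 0.01, the threshold of the study's methods. Alternatives included edgeR 4.0.16 and DESeq2 1.42.0 on the recovered reads, other scalings, filters, pseudocounts and thresholds, a replicate block and leaving out each library. Library totals range from 4.67 to 11.94 M recovered reads, and 3 reads per library were taken as the floor.

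Gene lists and comparisons were chosen with earlier results of these data known, and 5 lists were added after the values were seen. Named genes were, among called genes that averaged 1 CPM or more and whose groups did not overlap, the 20 largest changes in each direction of protein-coding genes, the 6 of long non-coding and the 3 of other biotypes, then the 4 largest called changes of each list and all DNA methylation enzymes. Other genes named in the text were chosen after their values were seen. Some genes that this rule names are not reported here.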

Additional observations from a re-analysis of the deposited data

Results flagged for a closer look

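The DAC effect on 35 named genes differed between cells with and without ATRA, tested as an interaction in the same limma fit (adjusted p under 0.01 over all 13448 genes). Values are the log2 fold change of DAC+ATRA against ATRA minus that of DAC against untreated. By the labels the untreated cells were taken at 96 h and the other 3 groups at 72 h, so if the labels hold ATRA and this difference in time cannot be told apart in these values. No explanation was tested.

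Genes that fell with DAC alone and less, or not, with ATRA had positive values. Among interferon-stimulated genes they were 5.17 for IFI44L, 4.08 for IFI44, 2.74 for IFIT3, 2.72 for OAS2, 2.69 for OAS3, 2.66 for RSAD2, 2.05 for ISG15 and 1.92 for USP18. ISG15 rose with DAC in cells with ATRA (log2 fold change 1.12), as did the thrombospondin gene THBS1 (1.02, interaction 2.55). The other positive values of downregulated genes were 5.28 for FZD4, 3.01 for IL2RA, 2.48 for LINC01229, 1.88 for RGS16, 1.68 for DHRS3, 1.63 for TRIB3 and 1.33 for DDIT4. FZD4, which encodes a Wnt receptor, had 0 normalised counts in all DAC libraries and at most 12.2 in untreated ones, so its value rests on few reads.

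Genes that fell with DAC alone and more with ATRA had negative values, -3.78 for CSF1, -3.21 for EGR3, -1.75 for CXCL8, -1.75 for KLF6, -1.50 for BTG2 and -1.41 for SOCS3. For EGR3 the log2 fold change was -2.94 without and -6.16 with ATRA.

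Genes that rose with DAC alone and less, or not, with ATRA also had negative values. They were -5.16 for AC104823.1, -3.40 for FAM135B, -2.79 for CYP4F3, -2.63 for CYSLTR2, -2.39 for MMP9, -2.0 for ANPEP, -1.86 for HK3, -1.48 for ITGB7, -1.33 for TNFSF10, -1.19 for PRAM1 and -1.12 for CST7. CST7 fell with DAC in cells with ATRA (log2 fold change -0.49). NCF1 was not called with DAC alone and fell with ATRA, for an interaction of -1.05. AL713998.1 rose more with ATRA, by 1.73.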

How the results depend on the processing

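No named gene changed direction under any alternative. Of 226 called named genes, 124 kept their call in every alternative fit and 102 lost it in at least 1, in 86 cases when only the DAC and untreated libraries were fitted. The number of called genes (909, with 495 upregulated and 414 downregulated) was 1318 with DESeq2 and 1015 with edgeR on the recovered reads, and 822 to 991 with other pseudocounts. It moved by over 1.5 times in the following fits, whose causes were not tested beyond their construction. It was 381 (228 and 153) with only the compared groups, 479 (249 and 230) with genes of a single transcript row, 1815 (940 and 875) at an adjusted p under 0.05 and 432 (261 and 171) with a change of over 2-fold required. With the RN7SL1 share as a covariate, an alternative chosen after seeing the data, it was 1460 (764 and 696). Without DAC replicate 3 and untreated replicate 3, likewise chosen afterwards, 663 genes were downregulated. With 1 library left out the total ran from 524 (without untreated replicate 2) to 1429 (without DAC replicate 3), the upregulated from 322 to 695 and the downregulated from 202 to 734. Without untreated replicate 1 and without untreated replicate 3, 238 and 270 genes were downregulated. The DAC effect in cells with ATRA (1384 called genes) was 675 with single transcript rows and 841 to 1357 with 1 library left out, lowest without ATRA replicate 2 (841) and DAC+ATRA replicate 2 (856). The 35 interactions of named genes were 20 with single transcript rows and 29 to 42 with 1 library left out. Untreated and DAC libraries of the same number did not deviate together from their group means (correlations of -0.15, -0.022 and -0.23). With 3 libraries a group and DAC replicate 3 apart from the rest, such correlations cannot settle whether the numbers pair the libraries. A fit with a block for the replicate number called 785 genes (433 and 352), 1235 in cells with ATRA and 32 interactions. The DAC libraries were shallower than the untreated ones, and the part of depth in the calls was not tested.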

Other observations

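Several secreted and surface genes outside the lists rose together with the maturation genes, chosen here after their values were seen. ORM1, an acute phase glycoprotein of the granules of neutrophils, had 242, 262 and 172 normalised counts in untreated libraries 1 to 3 and 1159, 1085 and 1866 in DAC libraries 1 to 3 (log2 fold change 2.58 ± 0.21 SE, adjusted p = 1.03e-07). SLPI, an inhibitor of neutrophil elastase, went from 20.2, 29.2 and 19.4 to 162, 122 and 136 (log2 fold change 2.57 ± 0.34 SE, adjusted p = 3.90e-05). ORM1 and ORM2 are near-identical, so the split of reads between them is uncertain, and ORM2 had a log2 fold change of 2.70 ± 0.35 SE. NAV3, a cytoskeletal gene named for its role in neurons, went from 20.2, 17 and 30.7 to 541, 696 and 728 (log2 fold change 4.82 ± 0.30 SE, adjusted p = 3.45e-09). MMP25, a membrane-bound metalloproteinase of neutrophils, had a log2 fold change of 1.74 ± 0.37 SE. MMP25 was not called without DAC replicate 1 or untreated replicate 1 or 2 (adjusted p of the alternatives 1.97e-04 to 0.0499). In all of them the libraries of both groups did not overlap.

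Genes of retinoid signalling changed without a retinoid being added, 2 upregulated and 3 downregulated of 17 tested, with 1 upregulated without DAC replicate 1 or 2 or untreated replicate 1 or 3. DHRS3, a retinaldehyde reductase induced by retinoic acid, went from 447, 509.8 and 404 to 159, 130.2 and 86 (log2 fold change -1.89 ± 0.16 SE, adjusted p = 2.32e-07). PRAM1, an adaptor protein of granulocytic maturation, went from 143, 173 and 203 to 406, 405 and 329.8 (log2 fold change 1.14 ± 0.15 SE, adjusted p = 4.86e-05). Among 14 tested genes of erythroid cells, megakaryocytes and mast cells, GP1BB rose (1.33) and VWF had a log2 fold change of -1.95, a call lost on leaving out any 1 library other than DAC replicate 2. Of the 2 called genes whose libraries overlapped, MT-CYB had 969.8, 718 and 767 and 948, 1468 and 1819 normalised counts and FBP1 44.3, 39 and 68.4 and 116, 127 and 64.2.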
